A study of Sus scrofa with 8 samples.

Results

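Imprinted genes with known roles in fetal growth, 8 in number, were followed in developing pig limb muscle: DLK1, PEG3, MEST, CDKN1C, NDN, PLAGL1, GRB10 and PHLDA2. They were taken by gene symbol from a table of 22516 Ensembl genes. All 8 had a row of their own, and all 8 passed the filter on low counts that left 17020 genes to test.

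Imprinted genes are transcribed mainly from the copy inherited from a single parent, under control of DNA methylation laid down in the egg or sperm. In other mammals DLK1, PEG3, MEST, NDN and PLAGL1 are read mostly from the paternal copy, and CDKN1C and PHLDA2 from the maternal copy. GRB10 is maternal in most tissues. Many of the maternal genes restrain growth, many of the paternal genes favour it, and several are abundant in fetal mesoderm and are switched down after birth. Counts per gene do not tell the parental copies apart, so imprinting itself was not measured here.

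Limb muscle tissue was collected from wild-type (WT) embryos and from embryos with a MYF5/MYOD/MYF6 knockout (KO), each at embryonic days 41 (E41) and 62 (E62). The growth protocol in the labels gives day 60 for the later stage. MYF5, MYOD1 and MYF6 are the transcription factors that commit cells to skeletal muscle, so the design asks what the limb muscle transcriptome is without them. Each of the 4 groups had 2 libraries, which the titles call biological replicates. Within a group the library names differ in a final number, and those of KO E62 name different embryos; for the other groups no label says what that number stands for. The sources used here do not give how the knockout was made, whether it is a single clone, or the breed. Library names carry a separate number for each group, and those of WT E41 carry a limb code of their own, so litter or batch and group cannot be told apart, nor can limb where WT E41 is compared.

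Library totals lay between 23402052 and 60539245 counts. MYF5 and MYF6 had 0 counts in each of the 4 KO libraries, and MYOD1 had 20 to 88 counts there against 1503 to 5715 in WT. The labelled tissue held its defining markers in WT and not in KO. The 13 measured genes of a 15-gene skeletal muscle list summed to 18000 and 18900 CPM (TMM-scaled CPM, a share of the library total) in WT E41 and to 39400 and 48700 in WT E62, against 9.9 to 12 in the 4 KO libraries. The replicates of KO E62 (Pearson's r of log CPM 0.967) and of WT E41 (0.972) were less alike than those of the other groups (0.984 and 0.987).

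In the knockout at E41, 2 of the 8 genes were higher (PEG3 and PLAGL1), 3 were lower (DLK1, MEST and GRB10) and 3 did not pass the test. At E62 none was higher and 7 were lower, all but NDN. Of all 17020 genes, 39.2% were called at E41 (18.5% higher, 20.8% lower) and 47.2% at E62 (21% higher, 26.2% lower), so calls were common throughout the table. Scaling by library size alone made 73.6% of the calls at E41 and 69.4% of those at E62 higher in KO, against 47.1% and 44.5% with TMM, and moved the median of all genes to 0.378 and 0.364; among the 8 genes at either stage this lost the call of MEST at E62 alone and turned no direction. The median log2 change of the 8 genes was -0.18 at E41 and -1.18 at E62, beside 0.09 and 0.06 for all genes. The effect of the knockout differed between the stages for 5 of the 8 (DLK1, PHLDA2, CDKN1C, PEG3 and PLAGL1), each time toward a lower value at E62, where 26.8% of all genes were called (15.5% toward lower). Calls rest on edgeR's quasi-likelihood F test, two-sided, with an adjusted p below 0.05 over all genes. Values with ± are log2 fold changes with their standard error, or CPM with the SD of 2 libraries where CPM is named.

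**Figure D1:**
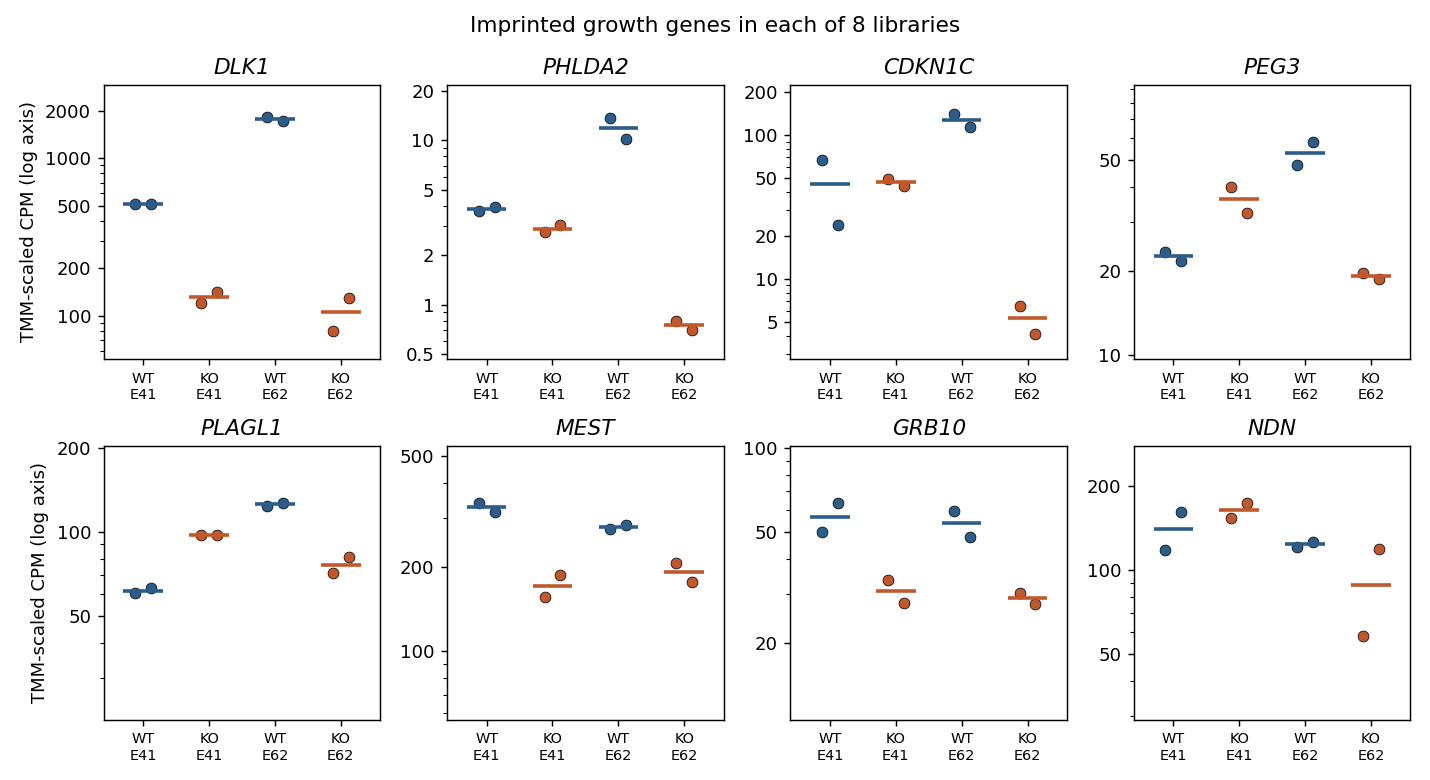
TMM-scaled CPM of each gene (log axis, a scale per gene) in the 8 libraries, with points for libraries, bars for group means of 2, WT in blue and KO in orange. By group mean, DLK1, PHLDA2 and CDKN1C were highest in WT E62 and lowest in KO E62. The GRB10 and MEST groups stood apart by genotype at both stages.

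**Figure D2:**
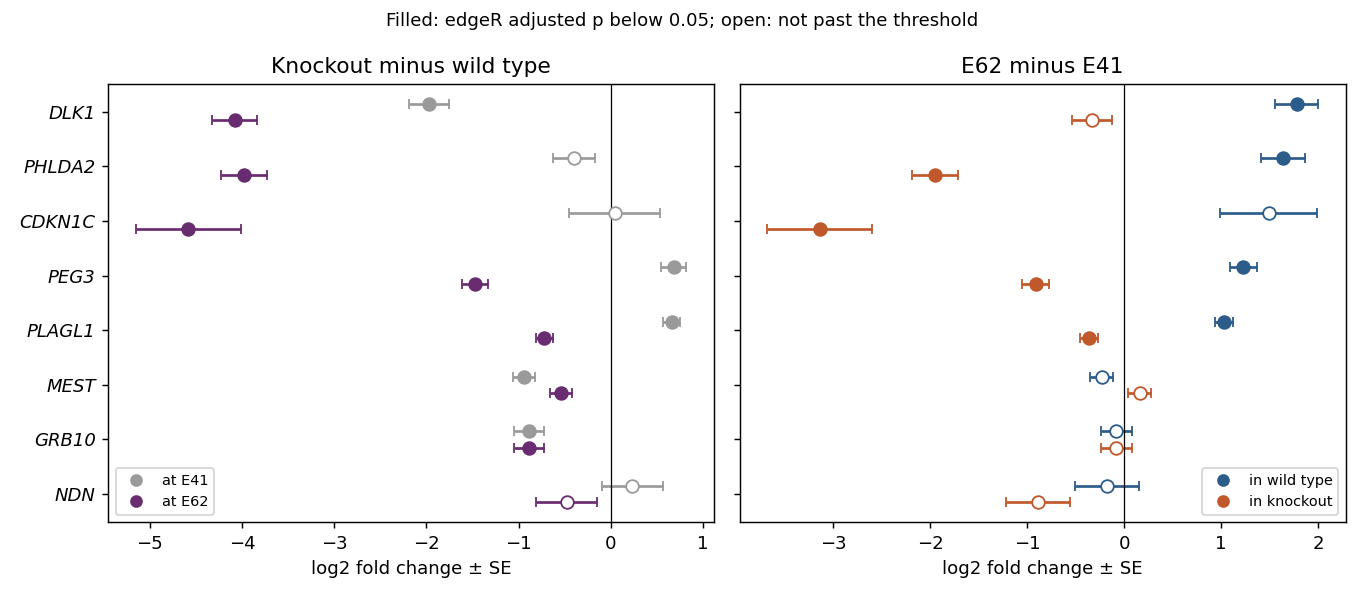
Log2 fold change with its standard error for each gene, KO minus WT at each stage on the left and E62 minus E41 in each genotype on the right, with filled points for edgeR adjusted p below 0.05 (2 libraries per group). PEG3 and PLAGL1 lie above 0 at E41 and below 0 at E62, and rose with age in WT but fell in KO.

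DLK1 (ENSSSCG00000035805) encodes a membrane protein related to the Notch ligands, named preadipocyte factor for its block on fat cell formation. It is known for abundant expression in fetal muscle and, in sheep, for the muscle overgrowth of the callipyge trait. RefSeq places it on chromosome 7 at 121565844 to 121577493 of the Sscrofa11.1 assembly. DLK1 stood at 514 and 512 CPM in WT E41 and at 1820 and 1710 CPM in WT E62. In KO it stood at 121 and 141 CPM at E41 and at 79.7 and 130 CPM at E62. Every WT library lay far above every KO library, and the KO libraries of both stages overlapped. The knockout level was 25.6% of the WT mean at E41 and 5.93% at E62. On the log2 scale KO differed from WT by -1.97 ± 0.22 in the younger embryos (adjusted p = 0.00053) and by -4.08 ± 0.24 in the older ones (adjusted p = 1.3e-05). With age DLK1 rose 3.44-fold in WT (1.78 ± 0.22, adjusted p = 0.0010) and moved by -0.33 ± 0.21 in KO (adjusted p = 0.26). Without KO E62 replicate 2 that last value was -0.72, with adjusted p = 0.016.

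The loss of DLK1 was accompanied by the loss of muscle transcripts, and in bulk tissue fewer cells of a type and less RNA per cell cannot be told apart. All 13 measured genes of the muscle list were lower in KO at both stages. DLK1 stood at 79.7 to 141 CPM (5401 to 7761 counts) in KO libraries where the muscle list stood at 12 CPM or less. The 6 adipocyte markers summed to 8.45 to 15.4 CPM in the WT libraries, to 23.5 and 32.8 in KO E41 and to 75.4 and 103 in KO E62, and 4 of 6 were higher in KO at E62 (1 of 6 at E41). Most of each KO sum came from the regulators PPARG and CEBPA, at 4.63 and 27.2 CPM in KO E41 replicate 1 and 32.4 and 34 CPM in KO E62 replicate 1. Of the genes of mature fat cells, ADIPOQ stood at 5.71 and 17.9 CPM in KO E62 and at 0.324 CPM or less in every other library. LEP was at 0 in KO E41 and at 0.266 and 0.434 CPM in KO E62, against 0.481 and 1.15 CPM in WT E62. The part of these tissues in the DLK1 values was not tested.

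CDKN1C (ENSSSCG00000040461) encodes p57, an inhibitor of cyclin-dependent kinases that holds cells out of the cycle as they differentiate, in muscle and in cartilage among other tissues. RefSeq has it on chromosome 2 at 2019391 to 2022092. CDKN1C stood at 67.6 and 23.6 CPM in WT E41, 49.2 and 44.6 CPM in KO E41, 140 and 115 CPM in WT E62 and 6.46 and 4.15 CPM in KO E62. At E41 both KO libraries fell between the WT libraries, and at E62 the groups were far apart. The change at E62 was -4.58 ± 0.57 (edgeR adjusted p = 0.0019), a KO level of 4.16% of WT, and the difference between the stages was -4.63 ± 0.74 (adjusted p = 0.0097). At E41 the estimate of 0.04 ± 0.49 (adjusted p = 0.96) rested on WT libraries that lay far apart: it was 1.03 (adjusted p = 0.04) without WT E41 replicate 1 and -0.51 (adjusted p = 0.19) without replicate 2. Cartilage markers differed between the same WT libraries, summing to 1720 CPM in replicate 1 and 572 CPM in replicate 2. In the KO E41 libraries they summed to 1030 and 5490 CPM. Bone markers stood at 4.44 CPM in replicate 1 and 131 CPM in replicate 2 in the same WT libraries. The part of cartilage and bone in the CDKN1C values was not tested.

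Within the knockout, CDKN1C fell 8.82-fold from E41 to E62 (-3.14 ± 0.54, adjusted p = 0.012). That call was lost without either KO E41 library (adjusted p = 0.063 and 0.053) and without KO E62 replicate 2 (0.065), with values between -3.22 and -2.86. In WT the estimate was a rise of 1.49 ± 0.50 (adjusted p = 0.066), which passed the test without either WT E41 library, at 2.52 (adjusted p = 0.0058) and 0.97 (adjusted p = 0.046). It also passed with DESeq2 (1.49, adjusted p = 0.019) and with limma-voom (1.69, adjusted p = 0.032).

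PHLDA2 (ENSSSCG00000021597) encodes a small protein with a pleckstrin homology domain that limits growth of the placenta. It lies on chromosome 2 at 2057679 to 2058675, with 35.6 kb between it and CDKN1C. PHLDA2 was low: 3.72 and 3.94 CPM in WT E41 (77 and 89 counts), 2.78 and 3.04 CPM in KO E41 (129 and 140 counts), 13.6 and 10.2 CPM in WT E62 (451 and 348 counts) and 0.797 and 0.701 CPM in KO E62 (54 and 42 counts). WT E62 was the highest group and KO E62 the lowest. The change was -0.40 ± 0.23 at E41 (adjusted p = 0.20) and -3.98 ± 0.25 at E62 (adjusted p = 1.5e-05), a KO level of 6.29% of WT. PHLDA2 rose with age in WT (1.64 ± 0.23, adjusted p = 0.0015) and fell in KO (-1.95 ± 0.24, adjusted p = 0.0019).

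GRB10 (ENSSSCG00000015631) encodes an adaptor that binds the insulin and IGF1 receptors and dampens their signal, and in mice its maternal copy limits muscle mass. The gene is on chromosome 9 at 136580363 to 136742552. GRB10 stood at 49.8 and 63.7 CPM in WT E41 and 59.6 and 47.9 CPM in WT E62, against 33.6 and 27.8 CPM in KO E41 and 30.3 and 27.7 CPM in KO E62. All WT libraries lay above all KO libraries, with no separation by stage. The change was -0.89 ± 0.16 at both stages (adjusted p = 0.0045 at E41 and 0.0032 at E62), and the difference between the stages was -0.00 ± 0.23 (adjusted p = 1.0). Age changes were -0.08 ± 0.16 in each genotype (adjusted p = 0.73).

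PEG3 (ENSSSCG00000003326) encodes a large zinc finger protein found in muscle stem cells and in other cells of the muscle interstitium, and takes part in stress and growth pathways. Its place is chromosome 6 at 61281931 to 61307788. PEG3 stood at 23.5 and 21.8 CPM in WT E41 and 40.1 and 32.2 CPM in KO E41, then at 48.2 and 58.1 CPM in WT E62 and 19.7 and 18.7 CPM in KO E62. The direction turned over between the stages, with no overlap between genotypes at either. The change was 0.68 ± 0.14 at E41 (adjusted p = 0.0068) and -1.47 ± 0.14 at E62 (adjusted p = 0.00012), and the difference was -2.15 ± 0.20 (adjusted p = 0.00089). The rise at E41 had adjusted p = 0.051 without KO E41 replicate 1, where it was 0.51. PEG3 rose with age in WT (1.23 ± 0.14, adjusted p = 0.00077) and fell in KO (-0.91 ± 0.14, adjusted p = 0.0035).

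PLAGL1 (ENSSSCG00000004127), a zinc finger transcription factor that can arrest the cell cycle and regulates other imprinted genes, was likewise higher in KO at E41 and lower at E62. It lies on chromosome 1 at 21299830 to 21371070. PLAGL1 stood at 60.3 and 62.7 CPM in WT E41, 97.1 and 97.0 CPM in KO E41, 124 and 127 CPM in WT E62 and 70.9 and 80.8 CPM in KO E62. Its replicates lay close together and no groups overlapped. The change was 0.66 ± 0.09 at E41 (adjusted p = 0.0012) and -0.72 ± 0.09 at E62 (adjusted p = 0.00049), and the difference between stages was -1.38 ± 0.13 (adjusted p = 0.00092). In WT it rose 2.04-fold with age (1.03 ± 0.09, adjusted p = 0.00035). The fall with age in KO was small (-0.36 ± 0.09, adjusted p = 0.022) and was lost without either KO E41 library or without KO E62 replicate 1, at adjusted p = 0.11, 0.092 and 0.094. It was also lost with only the groups compared (0.068) and with a filter of 1 CPM in 4 libraries (0.052).

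MEST (ENSSSCG00000016554) encodes an enzyme-like protein of the alpha/beta hydrolase fold that is widespread in fetal mesoderm and marks growth of fat tissue. It lies on chromosome 18 at 18319126 to 18358655, where RefSeq also has COPG2, MIR335 and an uncharacterised locus, so without strand its reads may be shared with theirs. MEST stood at 341 and 315 CPM in WT E41 and 275 and 283 CPM in WT E62, against 156 and 187 CPM in KO E41 and 207 and 177 CPM in KO E62. WT libraries were above KO libraries throughout. The change was -0.94 ± 0.12 at E41 (adjusted p = 0.0010) and -0.54 ± 0.12 at E62 (adjusted p = 0.0085), and the stages did not differ past the threshold (0.40 ± 0.17, adjusted p = 0.13). With library size alone as the scaling, the value at E62 was -0.24 (adjusted p = 0.12). Neither age change passed the test (-0.23 ± 0.12 in WT, 0.16 ± 0.12 in KO).

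NDN (ENSSSCG00000004834) encodes necdin, a growth suppressor of the MAGE family from the region lost in Prader-Willi syndrome, with known roles in neurons and in myoblast survival. The gene is on chromosome 1 at 142412688 to 142413665. NDN stood at 118 and 161 CPM in WT E41, 153 and 174 CPM in KO E41, 121 and 126 CPM in WT E62 and 57.7 and 119 CPM in KO E62. Only KO E62 replicate 1 stood apart, and its replicate was close to WT. The changes were 0.23 ± 0.33 at E41 (adjusted p = 0.62) and -0.48 ± 0.33 at E62 (adjusted p = 0.28). Without KO E62 replicate 2 the value at E62 was -1.10 (adjusted p = 0.0037). From E41 to E62, NDN moved by -0.89 ± 0.33 in KO (adjusted p = 0.093), which was -1.51 (adjusted p = 0.0045) without that library and passed the test with DESeq2 (-0.84, adjusted p = 0.012). SNRPN, of the same imprinted region in other mammals but with no chromosome in RefSeq here, stood at 35.2 CPM in replicate 1 and 70 CPM in replicate 2, against 32.3 and 26.9 CPM in WT E62. For SNRPN it was thus replicate 2 that stood apart from WT, and for NDN replicate 1. UBE3A, on the same chromosome as NDN, was at 95.7 and 94.7 CPM in these KO libraries. Skin markers summed to 559 CPM in replicate 1 and 39.2 CPM in replicate 2 and neuronal markers to 83.1 and 48.4 CPM. The part of these tissues in the NDN values was not tested.

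By group mean, WT E62 was the highest of the 4 groups for 5 genes (DLK1, PHLDA2, CDKN1C, PEG3 and PLAGL1). KO E62 had the lowest mean for 6 (DLK1, PHLDA2, CDKN1C, PEG3, GRB10 and NDN). For DLK1 and GRB10 the KO libraries of both stages overlapped, and for NDN only replicate 1 of KO E62 was low. The share of all genes with these orders was not computed, so the counts of 5 and 6 have no background beside them. In WT 4 of 8 genes rose with age (5 with DESeq2 or limma-voom, which add CDKN1C) and 0 fell, where 39.8% of all genes were called (19.8% higher). In KO 0 rose and 4 fell, where 30.1% were called (18% lower). The age and genotype comparisons use the same libraries, so they are views of the same values.

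Other genes near the 8 were read by position in RefSeq. Their counts stand beside shares of all genes of 18.5% higher and 20.8% lower at E41, and 21% and 26.2% at E62. Around CDKN1C on chromosome 2, 13 genes within 500 kb were tested, PHLDA2 among them. At E41, 7 of the 13 were higher in KO, 2 lower and 4, with PHLDA2, not called. At E62, 1 was higher, 5 lower, PHLDA2 included, and 7 not called. SLC22A18, a transporter gene with 1.9 kb between it and PHLDA2, stood at 5.89 and 5.04 CPM in WT E41, 1.77 and 1.22 CPM in KO E41, 25.4 and 12.8 CPM in WT E62 and 0.103 and 0.15 CPM in KO E62. Its change was -1.87 ± 0.37 at E41 (adjusted p = 0.0055; 0.062 with limma-voom) and -7.21 ± 0.48 at E62 (adjusted p = 1.9e-05). TSSC4, a splicing factor gene farther along the cluster, was higher in KO at E41 (1.31 ± 0.13, adjusted p = 0.00032) and lower at E62 (-1.66 ± 0.13, adjusted p = 5.6e-05). The tetraspanin CD81 (0.78 ± 0.12 and -0.37 ± 0.12) turned over in the same direction. The potassium channel KCNQ1 gave 1.22 ± 0.39 at E41, a call lost on leaving out any of 5 libraries (adjusted p up to 0.18) and with only the groups compared (0.058), and -0.97 ± 0.38 at E62 (adjusted p = 0.069). NAP1L4, a histone chaperone gene, fell at both stages (-0.57 ± 0.09 and -0.94 ± 0.09), and the lipid-transfer gene OSBPL5 rose at E41 alone (0.68 ± 0.10; -0.13 ± 0.09 at E62).

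Around DLK1, 6 genes were tested, of which 1 fell at E41 and 3 at E62, where 20.8% and 26.2% of all genes were lower. RTL1, a retrotransposon-derived gene of the same imprinted domain with a role in muscle, stood at 1.79 and 0.929 CPM in WT E41, 0.388 and 0.217 CPM in KO E41, 5.77 and 8.63 CPM in WT E62 and 0.634 and 0.651 CPM in KO E62. It fell by 2.15 on the log2 scale at E41 (SE 0.47, adjusted p = 0.0090) and by 3.48 at E62 (SE 0.44, adjusted p = 0.00054). The E41 call was lost without WT E41 replicate 1 (adjusted p = 0.054) or KO E41 replicate 2 (0.063). BEGAIN, on the other side of DLK1, gave 0.80 ± 0.42 at E41 (adjusted p = 0.18) and -2.36 ± 0.43 at E62 (adjusted p = 0.0055). DIO3, which inactivates thyroid hormone, belongs to this domain in other mammals but has no chromosome in RefSeq here. It was near the floor in WT, with 4 counts over WT E41 against 129 over KO E41, a rise of 3.87 ± 0.75 (edgeR adjusted p = 0.0053). At E62 it had 2 counts over WT and 29 over KO, a ratio of 7.63 (95% Clopper-Pearson interval 1.93 to 66, counting error only). The E62 call (2.84, edgeR adjusted p = 0.029) was kept in 8 of 15 alternatives.

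**Figure D3:**
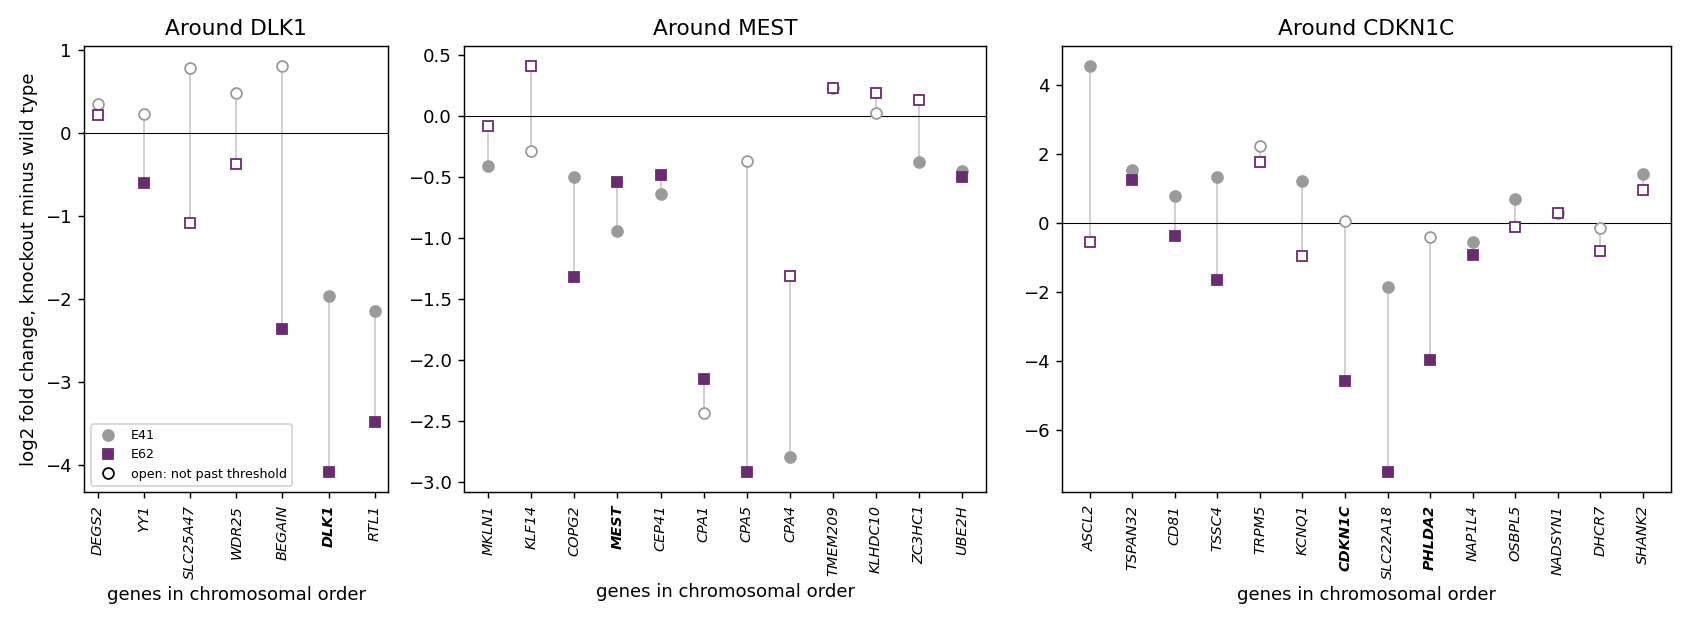
Log2 fold change, KO minus WT, of the tested genes within 500 kb of DLK1, MEST and CDKN1C in chromosomal order (E41 circles, E62 squares, filled where edgeR adjusted p is below 0.05, the genes of interest in bold). CDKN1C, SLC22A18 and PHLDA2 are adjacent and have the lowest values of their panel at E62, between -7.21 and -3.98.

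Around MEST, 11 genes were tested, with 6 lower at E41 and 5 lower at E62, and none higher. Of all genes, 20.8% were lower at E41 and 26.2% at E62. COPG2, a coat protein gene whose span overlaps MEST, changed by -0.50 ± 0.11 and -1.32 ± 0.11. Its E41 call was lost with library size alone (adjusted p = 0.14) and without WT E41 replicate 1 (0.087) or KO E41 replicate 1 (0.086). The carboxypeptidase gene CPA5 fell at E62 (-2.92 ± 0.36, adjusted p = 0.00049). Around PLAGL1, 6 of 9 tested genes were lower at E41 and 4 at E62, with 1 higher at E62. They include ZC2HC1B, with 1.9 kb between it and PLAGL1 (-5.76 ± 0.53 at E41 and -7.32 ± 0.49 at E62). The ribosome assembly gene LTV1 also fell (-1.55 ± 0.14 and -0.97 ± 0.13). PLAGL1 thus rose at E41, where 6 of its 9 tested neighbours fell and 3 were not called. Around GRB10, 5 genes were tested, with 0 higher and 0 lower at E41, and 1 higher and 1 lower at E62. The decarboxylase DDC, with 9.1 kb between it and GRB10, fell at E62 (-2.17 ± 0.34, adjusted p = 0.0016). The lymphoid factor IKZF1, with 115.4 kb between, rose at E62 (1.90 ± 0.29, adjusted p = 0.0013). The single tested gene within 500 kb of NDN, the ubiquitin ligase UBE3A, fell at both stages (-0.50 ± 0.10 and -0.72 ± 0.10), and its E41 call was lost with library size alone (adjusted p = 0.1) and without WT E41 replicate 1 or KO E41 replicate 1 (0.055 each). PEG3 had 3 tested neighbours, of which 1 rose at each stage, a different gene each time (ZNF471 at E41, ZNF470 at E62).

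Of a list of 43 other genes imprinted in mouse or human, 34 were tested; IGF2, H19, MEG3, MAGEL2, MKRN3, NNAT, GNAS, ZIM2 and KCNQ1OT1 matched no row by symbol and were not analysed here. At E41, 8 rose and 13 fell, with a median of -0.10. At E62, 6 rose and 19 fell, with a median of -0.83. The difference between the stages was called in 14, all toward lower values at E62. With age 16 of 34 rose and 1 fell in WT, and 1 rose and 13 fell in KO. These shares can be read beside the percentages of all genes given above, and several of the genes sit in the clusters just described.

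At E62 SLC22A18, ASB4 and CALCR had lower log2 values than any of the 8 genes. PEG10, a retrotransposon-derived gene needed for the placenta, stood at 3180 and 2900 CPM in WT E41, 1010 and 875 CPM in KO E41, 6710 and 7540 CPM in WT E62 and 384 and 212 CPM in KO E62. Like DLK1 it was lower at both stages, with -1.69 ± 0.27 at E41 and -4.58 ± 0.30 at E62, but PEG10 also fell with age in KO (-1.67 ± 0.27, adjusted p = 0.0047). ASB4, a ubiquitin ligase subunit gene from the PEG10 region of chromosome 9, was lower by -5.57 ± 0.37 and -7.20 ± 0.36. CALCR, the calcitonin receptor known from quiescent muscle stem cells, was at -1.35 ± 0.28 and -6.92 ± 0.34. BLCAP, whose gene spans NNAT in RefSeq, was at -0.68 ± 0.15 and -2.44 ± 0.16, and PON2 at -0.30 ± 0.10 and -1.27 ± 0.10. In contrast GATM, an enzyme of creatine synthesis, rose at both stages (1.25 ± 0.20 and 0.89 ± 0.19). SGCE, which lies beside PEG10, gave 0.02 ± 0.11 and -0.26 ± 0.11, with neither call.

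**Figure D4:**
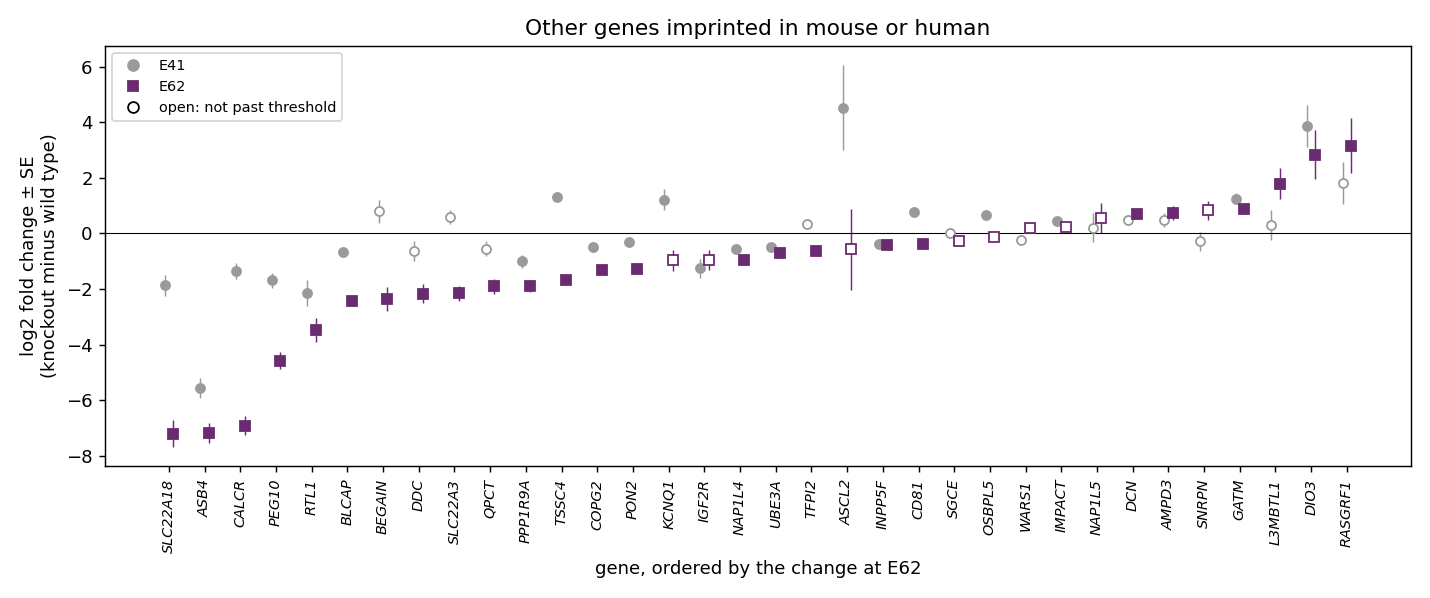
Log2 fold change with its standard error, KO minus WT, for the 34 tested genes of the wider imprinted list, ordered by the value at E62 (E41 circles, E62 squares, filled where edgeR adjusted p is below 0.05). The left end holds SLC22A18, ASB4, CALCR, PEG10 and RTL1, and 19 genes were lower at E62 against 6 higher.

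Partners of CDKN1C in cell cycle control were read from a list of 17 inhibitors, kinases, cyclins and pocket proteins, of which 16 were tested. At E41 2 rose and 4 fell (median -0.15), and at E62 2 rose and 8 fell (median -0.23), where 39.2% and 47.2% of all genes were called. CDKN1A, which encodes p21 and acts with p57 in cell cycle exit of muscle, stood at 374 and 405 CPM in WT E41 and 3.96 and 6.73 CPM in KO E41. At E62 it stood at 830 and 728 CPM in WT and at 11.3 and 6.14 CPM in KO. CDKN1A thus was lower at both stages (-6.19 ± 0.41 and -6.47 ± 0.41), with no difference between stages past the threshold (-0.29, adjusted p = 0.69), unlike CDKN1C, for which that difference was called. CDKN1B, the remaining member of the family, changed by -0.07 ± 0.12 at E41 and -0.44 ± 0.12 at E62 (adjusted p = 0.021), and the latter was lost with library size alone (adjusted p = 0.43) and without WT E62 replicate 1 or KO E62 replicate 1 (0.11 each). CCNE1 fell at both stages (-1.05 ± 0.18 and -1.31 ± 0.18), CDK6 at E62 (-1.37 ± 0.14), and CDK2 rose at E62 (0.46 ± 0.10).

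Of 16 receptors, ligands and adaptors of the insulin and IGF pathway in which GRB10 acts, 15 were tested. At E41 5 rose and 3 fell, where 18.5% of all genes were higher and 20.8% lower. At E62 5 rose and 5 fell, where 21% of all genes were higher and 26.2% lower. PIK3R1, the regulatory subunit of PI3-kinase, rose at both stages (1.05 ± 0.08 and 1.33 ± 0.08), as did the adaptor SHC1 (1.12 ± 0.16 and 0.95 ± 0.16). The adaptors GRB2 (-0.74 ± 0.09 and -1.10 ± 0.09) and SH2B2 (-0.78 ± 0.22 and -2.61 ± 0.22) fell, though the E41 call of SH2B2 was lost without either WT E41 library (adjusted p = 0.066 and 0.087), without the second KO E41 library (0.16) and with library size alone (0.12). The substrate genes moved at different stages: IRS2 rose at E41 (1.55 ± 0.25) and IRS1 fell at E62 (-1.30 ± 0.20). IGF2R, itself imprinted in mice and the receptor that clears IGF2, stood at 115 and 105 CPM in WT E41 against 28.6 and 62.9 CPM in KO E41. Its fall of -1.26 ± 0.35 (adjusted p = 0.034) was lost in 8 of 17 alternatives, with adjusted p up to 0.13. At E62 IGF2R stood at 184 and 225 CPM in WT against 112 and 98.6 CPM in KO, with no overlap, a change of -0.96 ± 0.35 that did not pass the test (adjusted p = 0.066).

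Relatives of DLK1, NDN, PLAGL1 and PHLDA2 gave 9 tested genes of 14. At E41 3 rose and 2 fell, and at E62 3 rose and 5 fell, where 39.2% and 47.2% of all genes were called. DLK2, the closest relative of DLK1, stood at 7.63 and 8.45 CPM in WT E41, 14.3 and 8.88 CPM in KO E41, 34.7 and 19.5 CPM in WT E62 and 0.915 and 0.234 CPM in KO E62. Its change was 0.53 ± 0.53 at E41 and -5.53 ± 0.65 at E62 (adjusted p = 0.00099), so, unlike DLK1, it did not pass the test at E41. Of the Notch ligands, DLL1 fell at E62 (-2.23 ± 0.26), while DNER rose at both stages (1.45 ± 0.21 and 2.78 ± 0.23), as did JAG1 (1.03 ± 0.17 and 0.56 ± 0.17) and DLL4 (1.02 ± 0.16 and 0.86 ± 0.16). MAGED1, a MAGE protein like necdin, fell at both stages (-0.59 ± 0.11 and -1.22 ± 0.11), and the E41 call was lost with library size alone (adjusted p = 0.05). PHLDA1 fell at E41 (-1.09 ± 0.16), the stage at which PHLDA2 did not pass the test, and gave -0.19 ± 0.16 at E62.

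The genes with the most similar profiles over the 8 libraries were found among 11909 genes with a symbol and a mean of at least 2 CPM, by Pearson's r of log2 CPM. Libraries form 4 groups, so high values of r are common and describe these libraries only. For DLK1 they were AGPAT5, KCNN3 and SLC9A7 (r = 0.996 each). PHLDA2 was most like MACIR (0.996), TMEM161A (0.995) and CACNA1H (0.994). For CDKN1C they were FBXO31 (0.975), SLC35A4 and PPP2R2B (0.974 each). PEG3 was most like ARPP19 (0.987), DVL2 (0.986) and VPS37C (0.981), and PLAGL1 was most like MTA1 (0.987), TSC22D4 (0.985) and IGHMBP2 (0.984). For MEST they were SLC43A3 (0.995), LTV1 (0.994) and CHMP5 (0.992), and for GRB10 PPP1CA (0.995), ATP5MC2 and ESD (0.994 each). NDN had no profile as close, with EEPD1 (0.904) and TMEM94 (0.902) nearest.

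Markers of other tissues also moved with genotype and stage. Fibroblast markers summed to 14900 to 34600 CPM in WT libraries and to 34700 to 69200 CPM in KO libraries. Of 9 genes, 7 were higher in KO at each stage, with 1 lower at E41 and 0 lower at E62. Most of each sum came from the collagen genes COL1A1 and COL3A1, at 11000 and 19300 CPM in KO E41 replicate 1. Macrophage markers rose in all 7 of 7 at E62, from 154 and 178 CPM in WT to 720 and 683 CPM in KO. Schwann cell markers fell from 358 and 377 to 182 and 121 CPM at E41 and from 490 and 508 to 52.2 and 59.1 CPM at E62, where 2 of 4 genes were higher and 1 lower at E41, and 1 higher and 1 lower at E62. Endothelial markers were higher in KO in 2 of 6 at E41 and 5 of 6 at E62. Muscle progenitor markers summed to 498 and 533 CPM in WT E41 and 1000 and 869 CPM in WT E62, against 55.9 and 85 CPM in KO E41 and 22.8 and 26.3 CPM in KO E62. The part of these cell types in the values of the 8 genes was not tested.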

How the data were processed

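Bulk RNA sequencing of 8 pig limb muscle libraries was analysed. The authors deposited 1 table of estimated counts per gene, whole numbers with no normalization. Per the submitters' processing notes, kallisto and DESeq2 were used; those notes list Sscrofa11.1 and susScr11 as builds. No source used here gives the annotation release or the strand of the counting. Symbols matched 15527 of 22516 identifiers. Positions are RefSeq's on Sscrofa11.1.

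Counts were rounded, filtered with filterByExpr (minimum count 10) and scaled by TMM. The quasi-likelihood model (edgeR 4.0.16 under R 4.3.3, robust) had a mean for each group, which left 4 residual degrees of freedom. P-values were adjusted by Benjamini-Hochberg over 17020 genes. Each standard error is the log2 change divided by the root of F. Within every group the replicates differed beyond counting noise, with chi-square values of 31.9 to 70.9 per degree of freedom. The 8 genes and all lists were chosen with earlier results of these data known. By rule the text names the 8 genes and, from each related list, genes among the 6 with the smallest p at each stage or next to a member. SGCE and SNRPN fall outside that rule and were chosen after their values were seen. IKZF1 and ZNF471 fall outside it too, and were named as called genes within 500 kb of a member. For similar profiles it names the 3 genes with the highest r, of which 1 for NDN is not reported here. Alternatives were DESeq2 1.42.0, limma-voom (limma 3.58.1), other scalings and filters, a replicate block, only the groups compared, and each library left out. The steps were tested on simulated data. No sequences were used.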

Additional observations from a re-analysis of the deposited data

Results flagged for a closer look

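Each result here was picked because the effect of the knockout differed between E62 and E41 by a test of that difference (edgeR adjusted p below 0.05). Values are the E62 effect minus the E41 effect on the log2 scale. Among the 8 imprinted growth genes they were -2.11 for DLK1, -2.15 for PEG3, -4.63 for CDKN1C, -1.38 for PLAGL1 and -3.59 for PHLDA2. Adjusted p ran from 0.00089 for PEG3 to 0.0097 for CDKN1C.

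Of the other imprinted genes and locus neighbours, the difference was -2.98 for TSSC4, -0.81 for OSBPL5, -1.15 for CD81, -2.18 for KCNQ1, -5.34 for SLC22A18, -3.17 for BEGAIN, -5.57 for CALCR, -1.76 for BLCAP, -2.89 for PEG10, -0.97 for PON2, -0.82 for COPG2, -2.55 for CPA5 and 1.53 for IKZF1. Among cell cycle genes it was -0.84 for CDKN2C, 0.75 for CDK4, -1.16 for CDK6 and 0.71 for CDK2. In the insulin and IGF pathway it was -1.83 for SH2B2, -1.23 for SH2B1 and -1.11 for IRS1. Among relatives of the 8 genes it was -6.06 for DLK2, -1.96 for DLL1, 1.33 for DNER, 0.90 for PHLDA1, -0.63 for MAGED1, -0.84 for MAGEH1 and -0.80 for PLAGL2. Of all 17020 genes, 26.8% passed the same test.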

How the results depend on the processing

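For the 8 genes, 40 results were recomputed under 672 alternatives: 632 kept direction and side of the threshold, 10 lost a call, 12 gained one and 18 reversed, none of them a called value. The reversed estimates lay between -0.18 and 0.04; the cause was not tested. The GRB10 difference between stages (-0.00) was 0.03 with DESeq2 and relative log expression factors, 0.01 with limma-voom, library size alone, the 1 CPM filter and the replicate block, and -0.21 to 0.14 with a library left out. GRB10 with age in KO was 0.00 with the 1 CPM filter and -0.22 to 0.06 with a library left out, and in WT -0.17 to 0.17. NDN with age in WT ran from -0.30 to 0.11 with a library left out. CDKN1C at E41 was -0.00 with only the groups compared and -0.51 to 1.03 with a library left out.

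Leaving out a library gave 1 to 3 of the 8 genes higher at E41 (1 without KO E41 replicate 1) and 2 to 5 lower with age in KO (2 without either KO E41 library). Over all genes, the 6678 calls at E41 became 3927 to 6720, the 4553 for the difference between stages 2499 to 4282, the 6782 with age in WT 4491 to 6885 and the 5126 with age in KO 1906 to 5022. The lowest were without KO E41 replicate 1, except in WT with age, where it was without WT E62 replicate 2. A lone library is then assumed to vary like the others.

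Replicate numbers did not pair the samples (correlations of same-number deviations -0.122 to 0.081). With the replicate block, calls numbered 6114 at E41 and 7512 at E62, against 6678 and 8028, and 2 calls were gained, CDKN1C with age in WT (1.61, adjusted p = 0.022) and NDN with age in KO (-0.95, adjusted p = 0.036). For the related genes, 1115 of 1185 alternatives kept the call, 68 lost it and 2 gained it. PHLDA2 had low counts, yet its standard errors in the genotype comparisons (0.23 at E41 and 0.25 at E62) were close to those of DLK1 (0.22 and 0.24). The widest were those of CDKN1C (0.49 and 0.57).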
